A study of Homo sapiens with 4 samples.

Results

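The 92 transcripts described here were at least 2-fold higher with an anti-PHGDH antibody than with control IgG although both IgG libraries also held reads of them. They came from a native RNA immunoprecipitation and sequencing experiment (RIP-seq) in HEK293T, a cell line derived from human embryonic kidney and transformed with adenoviral genes and SV40 large T antigen. Lysates were precipitated either with an antibody against the PHGDH protein (2 libraries) or with an IgG antibody as the control (2 libraries), and nothing else was stated to differ between the groups. All 4 libraries came from this 1 line under native conditions, and no library of input RNA was analysed here, so abundance in the cells has no measure of its own. The submitters describe the 2 libraries of each antibody as biological replicates. The values are CPM, the reads of a gene scaled to the same total in every library. A gene was a member if it reached 5 CPM in at least 2 libraries, was above 0 CPM in both IgG libraries, and had a lower anti-PHGDH value at least 2 times its higher IgG value on CPM + 1. Of 44715 genes listed, 9524 reached that level, and 3610 of these were above 0 in both IgG libraries once the mitochondrially encoded genes and ATF4 were set aside. The 92 members were 2.55% of the 3610, and 8 of the 3610 (0.222%) were 2-fold lower by the mirror image of the rule. Without the demand for IgG reads, 886 of the 9524 genes (9.30%) met the fold, and 784 nuclear genes among them were at 0 in an IgG library. The rule itself left out 9 mitochondrially encoded genes and ATF4, which otherwise met it. PHGDH, the mRNA of the targeted protein, was not a member because it was at 0 CPM in IgG replicate 1, against 460.9 CPM in IgG replicate 2. Anti-PHGDH replicate 1 gave 6550.2 CPM for it and replicate 2 gave 1531.5 CPM. Membership was decided by these same values, so the differences between the antibodies below are descriptions and carry no test.

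PHGDH catalyses the first committed step of serine synthesis, in which 3-phosphoglycerate from glycolysis is oxidised. Several metabolic enzymes are known to bind RNA in addition to their substrates, and the study asked which RNAs come down with this one. In RNA immunoprecipitation the control antibody measures RNA that sticks to beads, tube and immunoglobulin, so a transcript with reads in the control has a measured background, whereas a transcript at 0 has only an upper limit. Native conditions leave complexes uncrosslinked, and RNA can also be recovered through a partner protein.

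Anti-PHGDH replicate 1 held 3365837 reads and replicate 2 held 1216477. IgG replicate 1 held 3875746 reads and replicate 2 held 1579430. IgG replicate 1 stood apart from the rest, with 4148 genes above 0 where the other 3 libraries listed 14518 to 16767. One read was worth 0.258 CPM in IgG replicate 1 and between 0.297 and 0.822 CPM in the others. Neurofilament and vimentin mRNAs, which HEK293T cells are known to express, were present in all 4 libraries (NEFM at 75.5 to 351.4 CPM and VIM at 199.4 to 530 CPM). INA, also looked up as an HEK293T marker, was at 6.24 and 3.29 CPM with the PHGDH antibody and 0 and 2.53 CPM with IgG. PAX2, another such marker, reached at most 1.90 CPM, and the leukocyte and endothelial genes PTPRC and PECAM1 were at 0 throughout. The fibroblast gene COL1A1 was at 8.62 and 12.3 CPM with the PHGDH antibody and 0 and 7.6 CPM with IgG, the red cell gene HBA1 reached at most 3.29 CPM and the hepatocyte gene ALB 0.297 CPM. Their part in the results was not tested.

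The encoded products were mostly ordinary cellular proteins of many kinds. Of the 92 members, 90 (97.8%) were protein-coding and 2 were long noncoding RNAs (lncRNAs) in the RefSeq table. Over all genes tested 95.3% of those matched were protein-coding, and among the 3518 genes that were above 0 in both IgG libraries but missed the fold the share was 95.2%. The median gene span was 30556 bases for the members and 30804 bases for all genes tested. Sorted by what they encode, the members comprised 14 proteins of membrane traffic and the secretory pathway, 13 signalling proteins, 10 DNA-binding transcription factors, 10 chromatin proteins and transcription cofactors, and 9 proteins of RNA binding, RNA processing or translation. A further 8 encoded proteins of the cytoskeleton, adhesion or cilia, 8 were ubiquitin ligases or deubiquitinases, 4 were channels or transporters of the plasma membrane or lysosome, 4 were mitochondrial or mitochondrial import proteins, and 3 acted in retinoid or lipid metabolism. No role was assigned to 7 (NRSN2, PRR13, TMEM64, OGFRL1, C16orf87, C1orf174 and FLYWCH1). These roles were given after the member names were known, each gene in 1 class, so the class sizes have no background of their own.

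**Figure D1:**
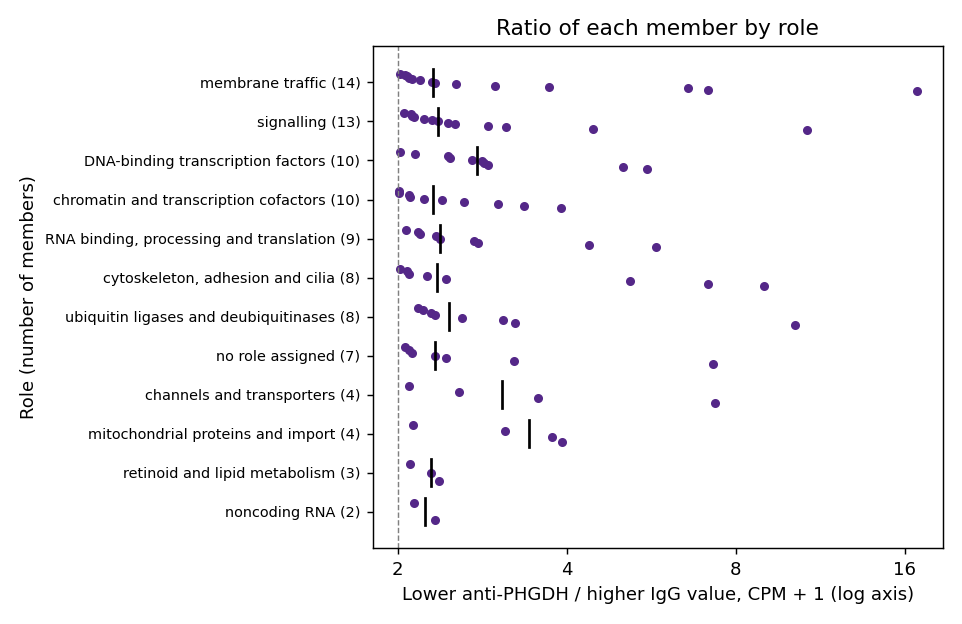
Ratio of the lower anti-PHGDH to the higher IgG value on CPM + 1 (log axis) for each of the 92 members, by role, with the number of members in brackets. Points are genes, the black bar is the class median and the dashed line is the 2-fold limit of the rule. Every class reaches down close to 2, and the highest point is VPS9D1 at 16.8.

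Lists of genes defined by symbol or pathway gave a count that can be set against the other genes. Of 201 tested genes for ubiquitin conjugation and removal, 68 were above 0 in both IgG libraries and 5 of these (7.35%) were members, namely RNF26, USP21, RNF4, RNF157 and USP42. This list did not count TRIM62, TRIM8 and TRIM41, which make up the rest of the ubiquitin class above. Of 56 tested genes of mitochondrial import and carriers, 25 were above 0 in both and 3 (12%) were members, namely SLC25A23, SLC25A39 and TOMM34. These shares stand beside 2.55% for all such genes and rest on few genes each. Counted without the demand for IgG reads, 10.4% of the ubiquitin list and 10.7% of the import and carrier list met the fold, against 9.30% of all genes tested. Other lists lay near 2.55%, with 1 of 44 translation factors (2.27%), 1 of 41 solute carriers outside SLC25 (2.44%), 1 of 48 hnRNP and SR splicing factors (2.08%) and 2 of 53 transmembrane genes named TMEM or TMED (3.77%). None of the 77 cytosolic ribosomal protein genes above 0 in both IgG libraries was a member, and their median log2 fold change was 0.03 over the 79 tested. None of the 75 nuclear-encoded respiratory chain and ATP synthase genes, the 54 mitochondrial ribosomal protein genes, the 47 zinc finger genes with ZNF, ZSCAN or ZKSCAN symbols or the 35 genes of translocation and folding in the endoplasmic reticulum (ER) was a member either. For the genes with those 3 kinds of symbol the fold was met by 29 of 212 tested (13.7%, against 9.30% of all genes), and all 29 were at 0 in an IgG library. Zinc finger proteins with other names, such as MAZ, KLF12 and GATA3, were members. Of 32 tested genes of the integrated stress response, none met the fold. ATF4 was kept out by the rule itself, and the serine and one-carbon list contributed PHGDH alone to the genes past the fold.

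The member values were spread over a wide range. In anti-PHGDH replicate 1 they ran from 5.64 to 2645.7 CPM and in replicate 2 from 6.58 to 1584.9 CPM. In IgG replicate 1 they ran from 0.258 to 342.1 CPM and in IgG replicate 2 from 1.27 to 327.3 CPM. CPM is not divided by transcript length, so levels are compared between libraries and not between genes. The deciding ratio had a median of 2.39, and 15 members were at 4 or above, 12 between 3 and 4 and 65 between 2 and 3. As a group the members took 2.52% and 1.38% of reads in the anti-PHGDH libraries and 0.144% and 0.411% in the IgG libraries.

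**Figure D2:**
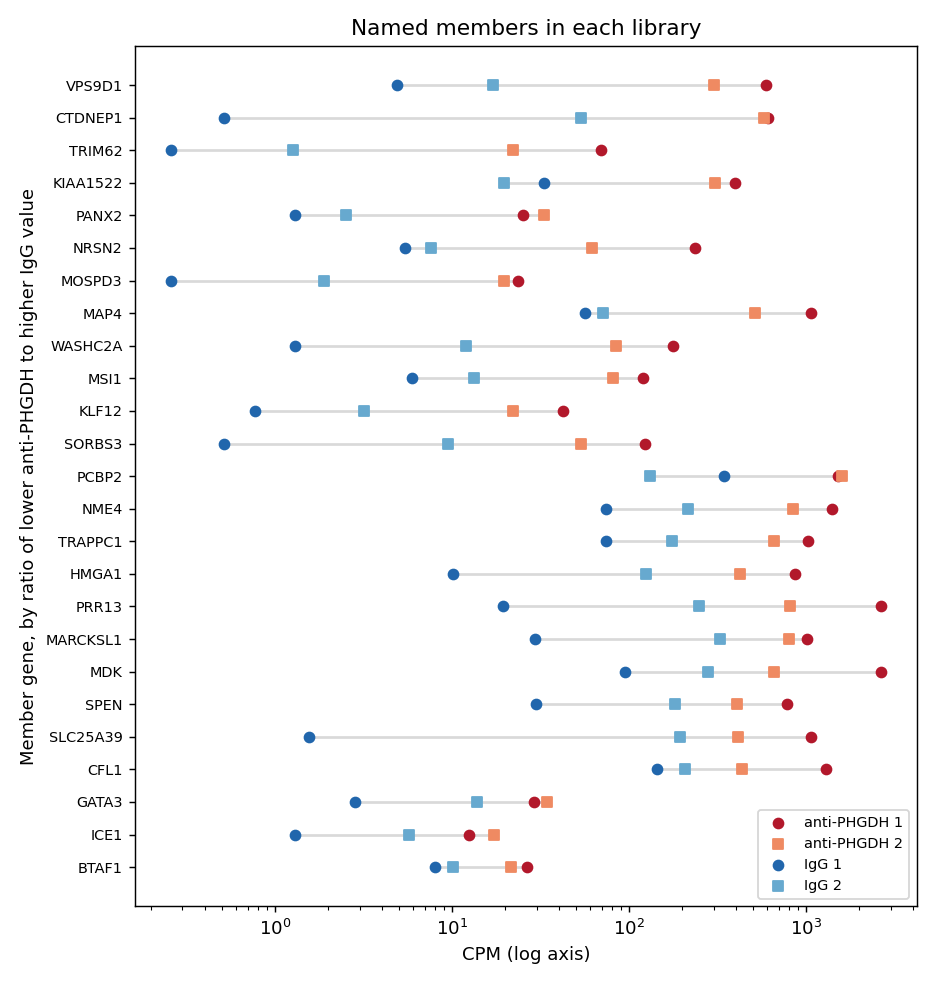
CPM (log axis) of 25 members in each of the 4 libraries: the 12 highest ratios, the 12 highest lower anti-PHGDH values and the 3 members just inside the fold limit, ordered by ratio. Red and orange points are the anti-PHGDH libraries and blue points the IgG libraries. IgG replicate 1 is the lowest point for all but KIAA1522 and PCBP2.

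For a view of the DNA around the leading members, the 120 bases before the outermost RefSeq start are shown for 4 members. These had the highest ratios among members with a promoter entry in the table whose window touches no other annotated gene. Members on chromosomes 8 and 18 were passed over in this choice, among them SORBS3, with a ratio of 5.19. The windows on GRCh38.p14 are chr1:32741710-32741829 (plus strand) for KIAA1522, chr7:100612042-100612161 (plus strand) for MOSPD3, chr3:48088849-48088968 (minus strand) for MAP4, chr19:10416653-10416772 (plus strand) for PDE4A. Each is written 5′ to 3′ on the gene's strand, and capitals mark GGGCGG or its reverse complement CCGCCC, the core of the GC box that Sp1-type factors are known to bind.
KIAA1522: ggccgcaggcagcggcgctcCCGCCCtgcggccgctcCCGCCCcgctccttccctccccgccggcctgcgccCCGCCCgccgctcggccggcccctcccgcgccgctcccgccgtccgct
MOSPD3: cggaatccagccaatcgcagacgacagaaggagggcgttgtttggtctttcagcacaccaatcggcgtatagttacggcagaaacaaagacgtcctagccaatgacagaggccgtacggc
MAP4: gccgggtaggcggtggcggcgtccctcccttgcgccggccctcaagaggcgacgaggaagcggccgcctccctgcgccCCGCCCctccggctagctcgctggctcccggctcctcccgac
PDE4A: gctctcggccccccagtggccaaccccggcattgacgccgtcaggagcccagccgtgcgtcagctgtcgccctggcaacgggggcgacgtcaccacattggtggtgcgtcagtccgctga
KIAA1522 had 3 matches, MAP4 had 1, and MOSPD3 and PDE4A had none. Of 7768 tested genes with an entry, 58.6% held at least 1 match in the same window, so a match is usual. Only 73 of the 92 members (79.3%) had an entry, too few for a comparison of member promoters with those of other genes, which is void and not given.

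VPS9D1 led the members. It encodes a protein with a VPS9 domain, the domain by which guanine nucleotide exchange factors act on Rab GTPases of endosomes, and lies on chromosome 16 from 89707134 to 89720898. It was at 592.7 CPM in anti-PHGDH replicate 1 and 302.5 CPM in replicate 2, and at 4.90 CPM in IgG replicate 1 and 17.1 CPM in replicate 2. Values below follow the same order, replicate 1 before replicate 2. Both anti-PHGDH values were far above both IgG values. The counts were 1995, 368, 19 and 27 reads, and the ratio within replicate number 2 was 17.7 (95% counting interval 12 to 27.2). Its log2 fold change on CPM + 1 was 5.36 (SE 1.86). The antisense transcript VPS9D1-AS1, which lies inside the gene, was at 389.5 and 218.7 CPM with the PHGDH antibody and at 0 and 19.6 CPM with IgG. The use of strand in the counting is not stated, so reads of VPS9D1 and of its antisense transcript cannot be told apart here. ZNF276, which overlaps the other end, was at 46.3 and 40.3 CPM with the PHGDH antibody and 0 and 11.4 CPM with IgG.

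CTDNEP1, counted among the signalling proteins, was the second. It encodes a phosphatase of the nuclear envelope that acts on lipin, a regulator of ER membrane synthesis, and lies on chromosome 17 from 7243591 to 7251978. The anti-PHGDH replicates agreed closely, with 611.1 and 576.3 CPM, whereas IgG replicates 1 and 2 gave 0.516 and 53.2 CPM. Only 2 reads stand behind the first IgG value and 84 behind the second. The ratio was 10.8 (8.63 to 13.8) within replicate number 2 and 1180 (327 to 9790) within number 1, which shows how much the IgG libraries differed. The log2 fold change was 6.04 (SE 1.82), the highest of all 92.

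Membrane traffic was the class of VPS9D1. In it, WASHC2A, a subunit of the WASH complex that builds actin on endosomes, was at 176.2 and 84.7 CPM with the PHGDH antibody and at 1.29 and 12 CPM with IgG. TRAPPC1, a subunit of the TRAPP tethering complex, was at 1022 and 655.2 CPM against 73.8 and 175.4 CPM. MOSPD3, an ER membrane protein with a major sperm protein domain, was at 23.5 and 19.7 CPM against 0.258 and 1.90 CPM, values that rest on 1 and 3 IgG reads. In each of the 3 the groups were far apart, though for MOSPD3 the IgG side is barely measured. The remaining members of the class were GRAMD1A, which moves cholesterol at membrane contacts, the Golgi SNARE BET1L, the KDEL receptor KDELR1 that returns ER proteins, the glycosylation enzymes B4GALT1 and MAN2A1, the ER-shaping GTPase ATL2, the SREBP escort SCAP, GOLGA7, the proprotein convertase PCSK6 and TMEM131. Their ratios lay between 2.02 and 2.98. KDELR1 and B4GALT1 had the best-measured background of these, with 308 and 82 reads in IgG replicate 1. KDELR1 was at 383.6 and 247.4 CPM with the PHGDH antibody and at 79.5 and 105.7 CPM with IgG. B4GALT1 was at 69.5 and 56.7 CPM against 21.2 and 24.1 CPM, so in both genes the IgG libraries lay close together.

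Besides CTDNEP1, signalling transcripts spanned ligands, receptors and intracellular enzymes. Of the ligands, MDK, the heparin-binding growth factor midkine, was at 2645.7 and 658.5 CPM with the PHGDH antibody and at 94.2 and 278.6 CPM with IgG, and VEGFB at 162.8 and 158.7 CPM against 6.19 and 63.9 CPM. MDK differed 4-fold between the anti-PHGDH libraries while VEGFB hardly differed. The insulin receptor INSR was at 42.2 and 27.9 CPM against 1.03 and 12.7 CPM. Downstream of such receptors, the adaptor SH2B1 had a ratio of 2.90 and the phosphoinositide 3-kinase subunit PIK3R2 one of 2.53. The cAMP phosphodiesterase PDE4A was at 55.3 and 55.1 CPM with the PHGDH antibody and at 11.6 and 9.50 CPM with IgG, so replicates were close on both sides. The others were ADCY3, which makes cAMP, the lipid kinase PIP4K2C, the protein kinases HIPK2 and PIM2, the Wnt pathway scaffold AXIN1 and the Rap regulator RAP1GAP2, with ratios from 2.05 to 3.12.

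The 10 transcription factors ranged from 2.02 to 5.57 in the ratio. KLF12, a Krüppel-like repressor, was at 42.2 and 22.2 CPM with the PHGDH antibody and at 0.774 and 3.17 CPM with IgG, and the homeobox gene EMX1 at 33.9 and 26.3 CPM against 0.258 and 4.43 CPM. In both genes IgG replicate 1 held 1 to 3 reads, so their background is known mainly from IgG replicate 2. MAZ, a zinc finger protein of GC-rich promoters, was better covered, at 474.5 and 230.2 CPM with the PHGDH antibody and 32.3 and 81 CPM with IgG (125 and 128 IgG reads). The p53 relative TP73, the Wnt effector TCF7L2, the homeobox factor ONECUT2, the nuclear receptor NR2C1, the ETS factor ELK3 and GATA3 were also in this class. TP73 and TCF7L2 were among the 5 members in which IgG replicate 1 was the higher control, at 3.61 against 2.53 CPM and 18.6 against 15.8 CPM.

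Chromatin and transcription cofactors gave a similar range of ratios, from 2.01 to 3.91. HMGA1, which bends AT-rich DNA, was at 866.9 and 420.9 CPM with the PHGDH antibody and at 10.1 and 124.7 CPM with IgG. SPEN, a large corepressor that itself binds RNA, was at 780.2 and 404.4 CPM against 29.9 and 181.1 CPM. SPEN-AS1, which overlaps it, was at 14 and 27.1 CPM against 0 and 36.1 CPM. For HMGA1 and SPEN anti-PHGDH replicate 1 was about 2 times as high as replicate 2. SMARCD1 of the SWI/SNF remodeller and POGZ were at 1 read each in IgG replicate 1. The histone methyltransferases ASH1L and SETD1A had 55 and 57 reads there and ratios of 2.10 and 2.09. PHF21A, ICE1 and the TBP-associated ATPase BTAF1 were also in this class.

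All 9 members that encode RNA-binding and translation proteins had at least 4 reads in IgG replicate 1. PCBP2, a poly(C)-binding protein that regulates mRNA stability and translation, was at 1502.7 and 1584.9 CPM with the PHGDH antibody and at 342.1 and 131.7 CPM with IgG, from 1326 and 208 IgG reads. The groups were at least 4.38-fold apart on CPM + 1 although the control was measured with many reads. MSI1, the neural stem cell RNA-binding protein Musashi-1, was at 120.3 and 81.4 CPM against 5.93 and 13.3 CPM. The splicing proteins SF3A1 and PTBP2 had ratios of 2.73 and 2.78. LARP1, which binds the cap and 5′ end of ribosomal protein mRNAs, was at 208.9 and 134 CPM with the PHGDH antibody and at 1.81 and 55.7 CPM with IgG. EIF4EBP2, which restrains the cap-binding factor, was at 233.5 and 171.8 CPM against 1.29 and 77.9 CPM, and the poly(A)-binding PABPC4 at 193.4 and 151.3 CPM against 2.58 and 69 CPM. These 3 translation genes shared a pattern of similar anti-PHGDH replicates and IgG replicates that differed more than 20-fold. The pattern was not particular to them. POGZ, of the chromatin class, was at 126.6 and 114.3 CPM against 0.258 and 43.1 CPM. The median of IgG replicate 1 minus replicate 2 on log2(CPM + 1) was -2.01 over the members and -3.3 over all genes tested. All genes tested include many at 0 in IgG replicate 1, which the rule keeps out of the members. Over the genes above 0 in both IgG libraries that missed the fold the median was -0.16, so there the gap was not usual. DROSHA, the nuclease that starts microRNA processing, and R3HDM2 had ratios of 2.34 and 2.07.

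In the cytoskeletal class, MAP4, the main microtubule-associated protein outside neurons, was at 1062.7 and 512.1 CPM with the PHGDH antibody and at 56 and 70.9 CPM with IgG. KIAA1522 (NHSL3 in RefSeq), of the Nance-Horan syndrome protein family, was at 398.7 and 304.2 CPM against 33 and 19.6 CPM. For both genes the IgG libraries were close to each other and held 217 and 112 reads and 128 and 31 reads, and the ratios were 7.14 and 8.97. The adhesion adaptor SORBS3, with a ratio of 5.19, had 2 reads in IgG replicate 1. CFL1, the actin-severing protein cofilin, was at 1300.7 and 433.2 CPM against 143.5 and 207 CPM. MARCKSL1, which binds actin and membranes, was at 1012.5 and 800.7 CPM against 29.4 and 327.3 CPM. ANXA11, WIPF2 and the ciliary transport protein IFT27 had ratios of 2.25, 2.08 and 2.02.

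In the ubiquitin class most members had a thin control in IgG replicate 1. TRIM62 was at 69.2 and 22.2 CPM with the PHGDH antibody and at 0.258 and 1.27 CPM with IgG, which are 1 and 2 reads, and its ratio of 17.5 within replicate number 2 had a counting interval of 4.40 to 152. Of the 8 members, 6 had 1 to 3 reads in IgG replicate 1 (TRIM62, RNF26, RNF4, RNF157, TRIM8 and USP42). TRIM8 was at 5.64 and 8.22 CPM against 0.258 and 1.90 CPM. The deubiquitinase USP21, with 18 reads in IgG replicate 1, was at 88.8 and 25.5 CPM against 4.64 and 7.6 CPM. TRIM41 had a ratio of 2.22.

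The 4 mitochondrial proteins were encoded in the nucleus. NME4, a nucleoside diphosphate kinase of the mitochondrial membranes, was at 1394 and 846.7 CPM with the PHGDH antibody and at 74 and 215.3 CPM with IgG. SLC25A39, which carries glutathione into mitochondria, was at 1065.1 and 411.8 CPM against 1.55 and 193.1 CPM. The contrast between these is in the controls, since NME4 had 287 and 340 IgG reads and SLC25A39 had 6 and 305. The calcium-regulated carrier SLC25A23 was at 414.8 and 150.4 CPM against 1.03 and 39.3 CPM, and TOMM34, a cytosolic cochaperone of import, at 481.9 and 151.3 CPM against 45.9 and 48.1 CPM. TOMM34 was the carrier and import gene whose IgG libraries agreed best.

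Of the channels and transporters, PANX2, a pannexin, was at 25 and 32.9 CPM with the PHGDH antibody and at 1.29 and 2.53 CPM with IgG. The magnesium transport proteins CNNM1 and CNNM4 and the carrier SLC35F6 had ratios of 3.56, 2.09 and 2.57. In retinoid and lipid metabolism, CRABP2, which delivers retinoic acid to its nuclear receptor, was at 372 and 264.7 CPM against 86.2 and 125.4 CPM. RDH10, which makes retinal from retinol, and PEDS1, a desaturase of plasmalogen synthesis, had ratios of 2.37 and 2.29. CRABP2 is a case of ample reads and a small ratio, 2.10, with 334 and 198 IgG reads. PRR13, a proline-rich protein among those without an assigned role, was at 2634.1 and 805.6 CPM against 19.4 and 249.5 CPM. NRSN2, a vesicle membrane protein, was at 235.6 and 61.7 CPM against 5.42 and 7.6 CPM.

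The 2 lncRNAs had few reads. LOC642846 was at 13.7 and 13.2 CPM with the PHGDH antibody and at 0.258 and 5.07 CPM with IgG. ASH1L-AS1 was at 7.72 and 6.58 CPM against 2.32 and 2.53 CPM, and its ratio of 2.60 within replicate number 2, from 8 and 4 reads, had a counting interval of 0.696 to 11.8. It overlaps ASH1L, so these 2 members share a locus. PRR13 and PCBP2 are the only other pair of members within 10 kb, 5463 bases apart on chromosome 12. In all, 10 members overlap another tested gene in the RefSeq table. TP73, for instance, overlaps TP73-AS1 (GFOD3P in RefSeq), which was at 24.4 and 5.75 CPM with the PHGDH antibody and 0 and 12 CPM with IgG, so its anti-PHGDH replicate 2 lay below the higher IgG value.

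How firmly a member counts as detected in both controls depended on IgG replicate 1. There, 19 members (20.7%) had 1 read, a further 10 had 2 or 3, 20 had 4 to 9, and 43 (46.7%) had 10 or more. A single read has an exact Poisson 95% interval of 0.0253 to 5.57 reads, or up to 1.44 CPM. Among the genes that missed the fold, 7.16% had 1 read and 80.3% had 10 or more, and the median was 225 reads against 8 for the members. The fold limit caps the IgG values relative to the anti-PHGDH values, so the members were chosen partly on these reads. It sets no limit on the reads as such, and 13 members had 100 or more in IgG replicate 1. How much of the difference the rule accounts for was not tested. In IgG replicate 2, by contrast, 3 members had 1 to 3 reads and 71 had 10 or more.

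**Figure D3:**
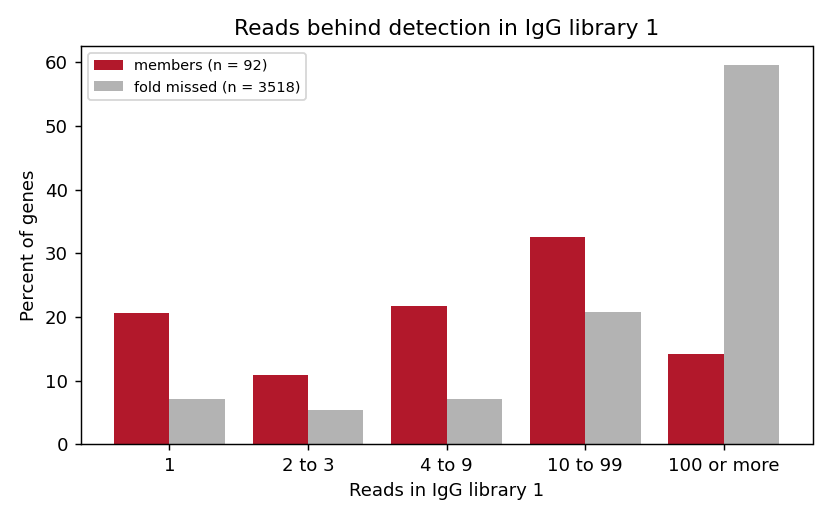
Percent of genes (vertical axis) by the number of reads in IgG replicate 1 (horizontal axis), for the 92 members and for the 3518 genes above 0 in both IgG libraries that missed the fold. Members fill the low bins, with 20.7% at 1 read, and 59.6% of the other genes had 100 reads or more.

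The limiting comparison lay mostly within replicate number 2. IgG replicate 2 was the higher control for 87 members and anti-PHGDH replicate 2 the lower precipitate for 83, and for 79 both held. The 87 were 94.6% of the members. IgG replicate 2 exceeded replicate 1 for 81.9% of all genes tested and 51.8% of those above 0 in both IgG libraries that missed the fold. Among the 784 genes past the fold but at 0 in an IgG library the share was 98.1%. The 5 members with the higher control in IgG replicate 1 were KIAA1522, PDE4A, PCBP2, TP73 and TCF7L2. The ratio of plain CPM within replicate number 2 had a median of 2.64 and ran from 2.06 to 17.7, and within number 1 it had a median of 30.4 and ran from 3.29 to 1180. It was higher within number 1 for 89 of 92, and PCBP2, KIAA1522 and PDE4A were the exceptions. Counting error alone put the 95% interval of the ratio within number 2 above 1 for 86 members and above 2 for 30. The rule chose the members on these same values, so the counts describe read depth and are no support for membership. Anti-PHGDH replicate 1 exceeded replicate 2 for 83 members (90.2%), whereas it did so for 48.7% of all genes tested and for 36.8% of the genes above 0 in both IgG libraries that missed the fold. It also did so for 81.5% of the 784 genes past the fold but at 0 in an IgG library, so this was not particular to the members. The median difference between the anti-PHGDH replicates on log2(CPM + 1) was 0.57 for the members, 0.55 for those 784 genes and -0.03 for all genes tested.

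**Figure D4:**
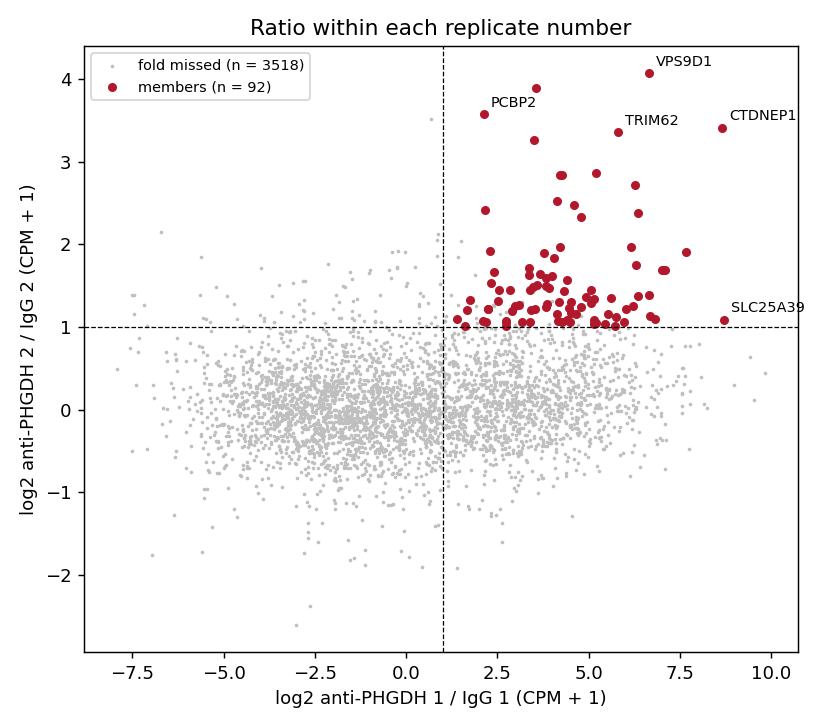
Log2 ratio of anti-PHGDH to IgG on CPM + 1 within replicate number 1 (horizontal axis) and number 2 (vertical axis) for the 3610 nuclear genes above 0 in both IgG libraries. Dashed lines mark 2-fold, members are red, and grey points past both lines failed a pair across replicate numbers. The members crowd just above the horizontal line and spread widely along the other axis.

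The fold was also counted within each pair of libraries with the same replicate number. Of the 3610 genes, 1403 (38.9%) were 2-fold higher within number 1 and 206 (5.71%) within number 2. Of the 1403, 119 (8.48%) were also 2-fold higher within number 2, where the share over all 3610 was 5.71%. Of the 206, the same 119 (57.8%) were 2-fold higher within number 1, where the share over all was 38.9%. Both shares restate the same overlap of 119 genes, so the second is no further observation. No test was made of them, and genes of 1 library are not independent of each other.

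The median log2 fold change of the members was 2.85, and that of all genes tested was 1.92. All genes tested include many at 0 in IgG replicate 1, which cannot be members. For the genes above 0 in both IgG libraries that missed the fold the median was -0.11, a set that is lower by its definition. In limma's fit over all 9524 genes, 0 of the 92 members had an adjusted p under 0.05, and their adjusted p ran from 0.677 to 0.732. At an unadjusted p under 0.05 there were 14 members in limma, 5 in edgeR and 11 in DESeq2, and over all genes tested edgeR had 46 (0.483%) and DESeq2 89 (0.934%) higher at that level. The fit called 1 gene higher (0.0105% of those tested), which was PHGDH, and 261 genes (2.74%) were higher at an unadjusted p under 0.05. The members were chosen on this contrast, so neither count is read further. Without IgG replicate 1, the members' median was 1.64, that of all genes was 0.14, and 11 members passed the threshold (CTDNEP1, KIAA1522, KLF12, MOSPD3, MSI1, NRSN2, PANX2, SORBS3, TRIM62, VPS9D1 and WASHC2A). In that fit 102 of 9459 genes (1.08%) were called higher. Without IgG replicate 2, the members' median was 3.84 and 87 of them passed, in a fit that called 6521 of 8844 genes (73.7%) higher and in which the median of all genes was 3.73. In both of these fits 1 IgG library stands for the control and is assumed to vary as the anti-PHGDH libraries do.

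At the limit of the rule the genes inside and outside differed little in the ratio. The 3 members just inside were GATA3, ICE1 and BTAF1, with ratios of 2.02, 2.01 and 2.01. BTAF1 was at 26.4 and 21.4 CPM with the PHGDH antibody and at 8 and 10.1 CPM with IgG. ICE1, a subunit of the little elongation complex, was at 12.5 and 17.3 CPM against 1.29 and 5.70 CPM, and GATA3 at 29.1 and 34.5 CPM against 2.84 and 13.9 CPM. The 3 genes just outside, HLCS, PRKAG2-AS1 and SGF29, each had a ratio of 1.98. SGF29, a reader of histone methylation, was at 84.7 and 62.5 CPM with the PHGDH antibody and at 0.258 and 31 CPM with IgG, a wider gap on the log scale than that of BTAF1.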

How the data were processed

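Per the labels' protocols, RNA released from beads by proteinase K was extracted, amplified as cDNA with a low-input kit and sequenced in 150-base paired ends. The submitters' processing notes name STAR 2.5.4b, featureCounts and hg38; annotation, use of strand, treatment of duplicates and of reads with several matches, and filters are not given in the sources used here. The authors deposited 1 table of CPM values per library. Values were whole multiples of 1 read in 99.98% to 100% of cases (tolerance 0.00061 to 0.0019 reads), which gave the totals and the reads per gene; 7 values were not whole, and 0 of these belonged to a member. Intervals (exact conditional 95%, and exact Poisson for a single read) cover counting error only, and reads without molecular identifiers are not independent molecules.

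Groups and replicate numbers came from the sample titles. The members, the gene lists and the comparisons were chosen with earlier results of these data known. Named genes were the 12 highest ratios, the 12 highest lower anti-PHGDH values and the 3 genes on each side of the fold limit, while other members were named by role. All 9524 genes entered one limma fit (version 3.58.1 under R 4.3.3) of log2(CPM + 1) on antibody alone, with the prior variance trended on intensity, and two-sided p-values were adjusted by Benjamini-Hochberg. edgeR 4.0.16 and DESeq2 1.42.0 on the recovered reads were alternatives, and so were other pseudocounts, filters, scalings and folds, and leaving out each library. A self-test of the limma fit and the rule used simulated reads with the same mean per gene in all libraries, apart from genes raised on purpose. It did not copy the low number of genes in IgG replicate 1, so it cannot speak for how either performs on these libraries. Symbols were matched to RefSeq (GRCh38.p14), 91 members by symbol and 1 by synonym, and coordinates and promoter sequences are RefSeq's. Protein sequences were not used here, so the planned protein features were not computed. With 2 libraries per antibody, the limma SEs and p-values follow mainly the spread between these libraries that is typical of genes at the same intensity. The spread of a gene's own replicates weighs little. BTAF1, with a pooled replicate SD of 0.21 on the log2 scale, had an SE of 2.61. The values of some members are not reported here.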

Additional observations from a re-analysis of the deposited data

How the results depend on the processing

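The 92 members numbered 58 at a pseudocount of 5, 52 after quantile normalization (38 of them among the 92), 225 at 1.5-fold, 15 at 4-fold and 41 when both IgG libraries had to hold at least 10 reads. With at least 4 reads 63 remained. Leaving out 1 library gave 97 to 1292 genes, with 295 without anti-PHGDH replicate 2, 923 without IgG replicate 1 and 1292 without IgG replicate 2. The other settings gave 72 to 125. The members' median log2 fold change (2.85) ran from 1.64 to 3.84 when 1 library was left out and was 1.70 after quantile normalization, which moved the median of all genes from 1.92 to -0.05. Every other scaling gave 2.95 to 3.11 for the members.

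The number of members past the threshold was 0 and stayed 0 with the replicate block in limma and in edgeR, in DESeq2 and under each pseudocount, filter and scaling; leaving out 1 library gave 0 to 87, the latter without IgG replicate 2, where 73.7% of all genes were called higher. The sample titles give same-numbered libraries nothing in common but the number. Both libraries of number 1 were deeper (3365837 and 3875746 reads) than those of number 2 (1216477 and 1579430). The deviations of same-numbered libraries had a correlation of 0.0058. Whether such libraries shared a batch was not tested, and this correlation cannot decide it. The share of genes chosen within replicate number 1 that were also 2-fold higher within number 2 (8.48%) was 5.81% at a pseudocount of 5, 20.1% at 1.5-fold and 1.36% at 4-fold. After quantile normalization the log2 fold change turned to -0.10 for GATA3, -0.36 for ICE1 and -0.52 for BTAF1, the 3 members at the fold limit; the cause was not tested. The other 22 of the 25 named members stayed positive there, and all that could be computed did so in every other setting. Under quantile normalization 7 of the 22 moved by at least their pooled replicate SD, of which KIAA1522 rose (3.72 to 4.21) and the rest fell. Some of the highest ratios were among them, with PANX2 going from 3.38 to 0.64, MOSPD3 from 3.56 to 0.63 and KLF12 from 3.54 to 0.84. Depth limits the members with 1 to 3 reads in IgG replicate 1, whose ratio within number 1 has no firm upper bound.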

Other observations

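Close relatives of 2 members were looked up after the member values had been seen. WASHC2C, a near-identical copy of WASHC2A on chromosome 10, had 143.2 CPM in anti-PHGDH replicate 1 and 72.3 CPM in replicate 2, with 0 CPM in IgG replicate 1 and 7.6 CPM in replicate 2. It stayed outside the members only because it was at 0 in IgG replicate 1, where WASHC2A had 5 reads. How reads matching both copies were counted is not stated, so the values of the pair are uncertain. PCBP1, the intronless relative of PCBP2, had 194 and 204.7 CPM with the PHGDH antibody and 377.2 and 131.7 CPM with IgG. Its IgG libraries straddled the anti-PHGDH libraries, whereas those of PCBP2 lay below them, and the difference between the 2 genes was not tested.

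The members on chromosome 10 numbered 8 (8.70% of members, against 3.99% of genes tested), and those on chromosome 16 also 8 (8.70% against 4.76%). There were 9 on chromosome 12 (9.78% against 5.44%). Chromosome 3 held 2 (2.17% against 5.70%). These counts are small and no test was made of them.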
